A study of Rattus norvegicus with 10 samples.

Results

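Messenger RNAs of plasma proteins that are mainly made in the liver were followed here in kidneys of near-term rat fetuses. A gene was included when it is one of 36 named genes for plasma proteins, apolipoproteins and a liver enzyme, and when a probe set on the array carries its symbol and no other. This gave 41 probe sets for 31 genes, of 15866 probe sets and 10411 genes with 1 symbol in all. Of the other 5 genes, 3 are listed only on probe sets shared with another gene, and 2 had no listed probe set. The genes were chosen by their signals on these same arrays, namely the difference between the groups and the similarity to Alb from array to array. Group differences and correlations with Alb are therefore given as a description.

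Hepatocytes secrete most proteins of blood plasma: albumin and other carriers, clotting factors, protease inhibitors, complement and the proteins of lipoprotein particles. Many of their genes share liver-enriched activators such as HNF1, HNF4 and C/EBP factors, and a subset, the acute-phase genes, also responds to interleukin 6 and glucocorticoids. In the fetus alpha-fetoprotein precedes albumin as the main serum carrier. The kidney also expresses some of these genes itself, among them Apoe, C3 and Cp.

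Each of 10 arrays measured total RNA of 1 fetal kidney sample taken on day 22 of gestation. The hyperinsulinemic group (replicates 6 to 10) came from growth-restricted fetuses of Wistar mothers of 200 to 280 g. Each mother ate a normal diet and received a 2 mm piece of a slow-release insulin implant under the skin at 2 times, the week before mating and the week after it. The normal group (replicates 1 to 5) came from mothers on a regular diet, whose strain, implant or sham procedure the labels used here do not give. Litter, fetal sex and dissection batch are not given either, so the spread between arrays may be partly technical, and littermates may be among the replicates.

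The signals are MAS5 intensities on a linear scale, scaled by the authors so that every array had a trimmed mean of 250, and they carry no unit of molecules. Array medians lay between 130 and 136.9. The low-signal filter described further on was passed by 19 of 20 proximal tubule genes and 10 of 10 other kidney genes on the array. It was also passed by 7267 of all 10411 genes and by 11 of 14 leukocyte genes. Passing it is therefore not specific to kidney genes. The summed proximal tubule signal ran from 23999 to 25929 in hyperinsulinemic kidneys and from 24586 to 26624 in normal kidneys. Xist, the transcript that silences an X chromosome in female cells, ran from 42.4 to 70.5 in hyperinsulinemic kidneys and from 0.8 to 2 in normal kidneys. Fetal sex and maternal treatment therefore cannot be told apart in any group difference below. In whole tissue, more cells of a type and more RNA per cell cannot be told apart either.

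The albumin gene, its neighbour for alpha-fetoprotein and the gene of the vitamin D binding protein, Gc, belong to 1 gene family on chromosome 14. No other protein-coding gene lies between Afp and Alb, and 4 lie between Alb and Gc. Their promoters are shown because these neighbours gave very different signals in these kidneys. Each window runs from 250 bases before to 50 after the RefSeq transcription start in the GRCr8 build: chr14:17906930-17907229 on the minus strand for Alb, chr14:17875596-17875895 on the minus strand for Afp and chr14:18916005-18916304 on the plus strand for Gc. Capitals mark GTTAAT, the first part of the motif bound by HNF1, searched on both strands.
Alb: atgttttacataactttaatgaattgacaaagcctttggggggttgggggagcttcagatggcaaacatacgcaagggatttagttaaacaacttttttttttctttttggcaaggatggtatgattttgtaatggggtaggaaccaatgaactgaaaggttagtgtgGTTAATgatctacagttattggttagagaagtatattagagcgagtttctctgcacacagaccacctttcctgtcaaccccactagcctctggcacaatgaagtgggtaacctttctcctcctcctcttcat
Afp: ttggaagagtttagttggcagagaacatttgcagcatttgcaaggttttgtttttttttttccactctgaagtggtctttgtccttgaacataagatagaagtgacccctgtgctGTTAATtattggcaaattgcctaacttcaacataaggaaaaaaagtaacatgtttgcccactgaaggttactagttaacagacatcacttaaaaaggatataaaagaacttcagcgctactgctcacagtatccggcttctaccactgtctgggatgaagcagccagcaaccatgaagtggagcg
Gc: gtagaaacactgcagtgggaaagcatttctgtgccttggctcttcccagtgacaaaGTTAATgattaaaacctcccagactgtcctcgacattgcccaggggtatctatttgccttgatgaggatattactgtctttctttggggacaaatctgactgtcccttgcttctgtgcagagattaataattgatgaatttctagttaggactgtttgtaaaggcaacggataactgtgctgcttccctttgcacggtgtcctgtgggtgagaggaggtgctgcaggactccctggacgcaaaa
Each of the 3 windows held GTTAAT 1 time. Promoter windows were listed for 25 of the 31 genes, and the motif stood in 10 of their 29 windows, in 8 genes: Alb, Afp, Gc, Fga, Fgb, F2, Plg and Apoc1. It stood in 7.45% of all 33469 windows of the same length. The letters TATAAA, also searched on both strands, stood in 6 of the 29 windows, that of Afp included, and in 14.2% of all windows. A match is a description of the letters and not of binding.

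Alb, the gene of the main plasma protein, was the most variable member in absolute signal. It gave 1741.9, 231.4, 436.4, 246 and 84.9 in hyperinsulinemic replicates 6 to 10, against 42.9, 66.9, 42.9, 842.2 and 49.3 in normal replicates 1 to 5. All hyperinsulinemic arrays lay above normal replicates 1, 2, 3 and 5, and 4 of them lay below normal replicate 4, so the groups overlapped. Its mean signal was 548 ± 679 in hyperinsulinemic kidneys and 209 ± 354 in normal kidneys (SD, n = 5 each). The log2 difference, hyperinsulinemic minus normal on the log2(signal + 16) scale, was 1.67 ± 0.76 (limma standard error, n = 5 each). It was 1.08 without hyperinsulinemic replicate 6 and 2.41 without normal replicate 4. A second Alb probe set was dimmer and followed the first with a Pearson r of 0.98 over the 10 arrays.

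Afp did not share that pattern. Its signals were 706.5, 717, 942.7, 873.7 and 998.9 in hyperinsulinemic kidneys and 848, 827, 885.9, 1003.8 and 863.6 in normal kidneys. The groups overlapped, although hyperinsulinemic replicates 6 and 7 lay below every normal array. The array with the most Alb, hyperinsulinemic replicate 6, had the lowest Afp of all. The log2 difference was -0.07 ± 0.09, and r with Alb was -0.19. Gc, the carrier of vitamin D metabolites, stood at 582, 101.4, 191, 122.8 and 97.5 in the hyperinsulinemic group, against 88.6, 69.9, 71, 103.2 and 63.8 in the normal group. Only normal replicate 4 kept the groups from separating. Its log2 difference was 0.99 ± 0.35, or 0.57 without hyperinsulinemic replicate 6. A second Gc probe set was dimmer and differed less, at 36.1 to 52.2 in hyperinsulinemic kidneys and 22.3 to 49.2 in normal kidneys. Its log2 difference was 0.21, and its r with Alb was 0.37.

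**Figure D1:**
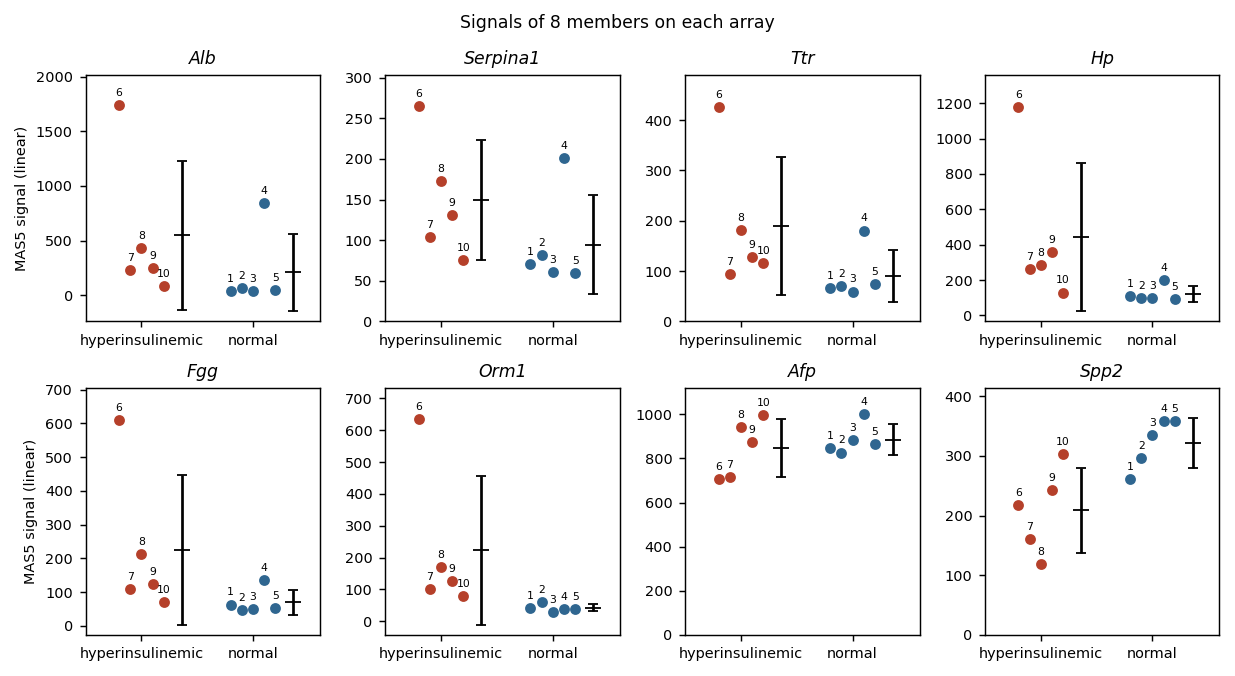
MAS5 signals (linear scale from the authors' table) of 8 members in hyperinsulinemic (red) and normal (blue) kidneys; each point is 1 array, numbered by replicate, and bars give the mean and SD of 5 arrays. Alb reaches 1741.9 on hyperinsulinemic replicate 6 and 842.2 on normal replicate 4, while Orm1 is high on the first and 38 on the second.

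Among the other carriers, the haptoglobin gene Hp, whose protein binds free haemoglobin, gave 1180.4, 265, 286.1, 358.3 and 129.9 in the hyperinsulinemic group, against 108, 101.2, 100.2, 198.1 and 91.6 in the normal group. Of the hyperinsulinemic arrays only replicate 10 fell inside the normal range. The log2 difference was 1.43 ± 0.40. The transthyretin gene Ttr, whose protein carries thyroid hormone and retinol-binding protein, gave 426.6, 93.7, 181.1, 128.4 and 116.2 in the hyperinsulinemic group, against 67.2, 70.6, 59.5, 180.7 and 73.7 in the normal group. Here normal replicate 4 matched hyperinsulinemic replicate 8, and the log2 difference was 0.85 ± 0.33, or 0.52 without hyperinsulinemic replicate 6. The haem carrier gene Hpx stood at 503.7 on hyperinsulinemic replicate 6, at 65.5 to 215.8 on the other hyperinsulinemic arrays and at 41.5 to 72.4 on the normal ones. Rbp4, the retinol carrier, was dim, with 101.1 on hyperinsulinemic replicate 6, 38.2 on normal replicate 4 and 37.8 on hyperinsulinemic replicate 8. All other arrays had 11.6 or less.

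Ceruloplasmin, the copper-carrying oxidase encoded by Cp, had 3 probe sets that disagreed. Its brightest gave 306 ± 34.8 in hyperinsulinemic kidneys and 281 ± 25.6 in normal kidneys (SD, n = 5 each), with r = -0.21 with Alb. A second ran from 132 to 190.1 and from 114.2 to 205.4. The third, below the filter, reached 454.3 on hyperinsulinemic replicate 6, against 44.9 to 111.3 on the other hyperinsulinemic arrays and 54.6 to 62.6 on the normal arrays. What sets these probe sets apart, such as the transcript end they match, was not tested.

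The 3 fibrinogen chain genes lie side by side on chromosome 2, in the order Fgg, Fga, Fgb. Fgg gave 611.1, 108.9, 213.1, 122.6 and 71.5 in the hyperinsulinemic group, against 63, 45.6, 48.5, 134.9 and 53.7 in the normal group. Its log2 difference was 1.21 ± 0.41, or 0.77 without hyperinsulinemic replicate 6. Fga, dim on most arrays, reached 300.1 on hyperinsulinemic replicate 6 and stood at 19.9 to 81.2 on the other hyperinsulinemic arrays, against 9.6 to 60.6 in the normal group. A second Fga probe set ran only from 23.8 to 53.3 in hyperinsulinemic kidneys and from 28.7 to 33.4 in normal kidneys. Fgb gave 273.7, 92.7, 119.1, 78.1 and 83.6 in the hyperinsulinemic group, against 64.1, 70.6, 72, 119.5 and 80.2 in the normal group. By their brightest probe sets, all 3 neighbours thus shared hyperinsulinemic replicate 6 and normal replicate 4 as the highest array of each group. Fgb's log2 difference was 0.47 ± 0.25, or 0.18 without hyperinsulinemic replicate 6, and 2 further Fgb probe sets stayed at 47.1 or less on every array. Plg, the plasmin precursor gene, reached 197.5 on hyperinsulinemic replicate 6 and 54.4 on normal replicate 4. Prothrombin's gene F2 varied least of the clotting genes, from 71.4 to 145.4 in hyperinsulinemic kidneys and from 47.1 to 107.5 in normal kidneys.

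Protease inhibitor and acute-phase genes split into several patterns. Serpina1, the alpha-1-antitrypsin gene, gave 264.7, 103.7, 172.9, 130.4 and 76.2 in the hyperinsulinemic group, against 70.3, 81.4, 60.5, 201.7 and 59.4 in the normal group. Its Pearson r with Alb on the log2 scale, 0.99, was the highest among the members, although by Spearman rho (0.95) Ambp, Apoh, Fga and Ttr came closer and by r of the linear signals Itih3, among others, did. For Serpina1 the log2 difference was 0.60 ± 0.30, or 0.39 without hyperinsulinemic replicate 6. Orm1, the acute-phase gene of alpha-1-acid glycoprotein, gave 634.4, 101.3, 170.1, 126.8 and 79.4 in the hyperinsulinemic group, against 42.8, 61.2, 30.1, 38 and 38.4 in the normal group. Every hyperinsulinemic array lay above every normal array, normal replicate 4 included. Orm1 lay below the filter; its log2 difference was 1.66 ± 0.41 and did not pass in the fit without a filter (limma, adjusted p = 0.691).

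Ahsg, the gene of fetuin-A, a fetal plasma protein that holds calcium phosphate in solution, showed the opposite balance between those arrays. It gave 145.6 on hyperinsulinemic replicate 6 and 157.3 on normal replicate 4, with 33.6 to 81.8 on the other hyperinsulinemic arrays and 32.2 to 54.1 on the other normal ones. Itih3, which encodes a heavy chain of the inter-alpha inhibitors, gave 228.3 on hyperinsulinemic replicate 6 and 100.4 on normal replicate 4, and between 3.5 and 40.6 elsewhere. Ambp, which encodes alpha-1-microglobulin and bikunin, moved over a narrow range, at 123 ± 38.5 in hyperinsulinemic kidneys and 94.0 ± 12.8 in normal kidneys (SD, n = 5 each). A2m, an acute-phase protease inhibitor of the rat, ran from 38.1 to 62.7 in the hyperinsulinemic group, against 107.8 on normal replicate 4 and 33.3 to 48 on the other normal arrays.

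Spp2, which encodes a secreted phosphoprotein that binds bone morphogenetic proteins, was the member with the largest difference in the other direction. It gave 216.9, 160.5, 119.1, 242.4 and 303.6 in the hyperinsulinemic group, against 261.3, 296.3, 334.6, 358.2 and 358.9 in the normal group. Only hyperinsulinemic replicate 10 lay inside the normal range. The log2 difference was -0.64 ± 0.18, it ranged from -0.60 to -0.67 without either of the arrays with the most Alb, and r with Alb was -0.40.

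Apolipoprotein genes were mostly dim. Apoc3, an inhibitor of triglyceride clearance, gave 451.3, 122.9, 164.8, 123 and 114.3 in the hyperinsulinemic group, against 125.8, 106.3, 133.3, 120.8 and 108.7 in the normal group. The signal was high on hyperinsulinemic replicate 6 and near the normal range elsewhere; the log2 difference of 0.45 ± 0.27 was 0.12 without that array. Apoe, a lipoprotein ligand that many tissues make, stood at 221 ± 88.0 in hyperinsulinemic kidneys and 177 ± 28.8 in normal kidneys (SD, n = 5 each), with 376.5 on hyperinsulinemic replicate 6. A second Apoe probe set gave 1.3 or less on every array. Apoa2 and Apoc1, of high-density lipoprotein, reached 172.7 and 250.4 on hyperinsulinemic replicate 6, against 24.3 and 32.7 on normal replicate 4. Apoh, which binds anionic phospholipids, stood at 218.6 and 99.6 on the same arrays. Apoa1 lay under the filter on every array, at 2.9 to 53.1 in hyperinsulinemic kidneys and 1.4 to 37.6 in normal kidneys, and so did Apoa4, whose highest signal, 34.8, was on hyperinsulinemic replicate 10. The 2 Apob probe sets disagreed: the brighter was lowest on hyperinsulinemic replicate 6, at 42.1, and the other highest there, at 104.9.

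The central complement gene C3 gave 645.7, 114.6, 206.3, 97.3 and 69.2 in the hyperinsulinemic group, against 65.5, 49.5, 40.4, 147.1 and 34.2 in the normal group. Normal replicate 4 lay within the hyperinsulinemic range and the other normal arrays below it. The log2 difference was 1.25 ± 0.46, or 0.78 without hyperinsulinemic replicate 6. Vtn, the gene of the adhesion protein vitronectin, reached 99.6 on hyperinsulinemic replicate 6 and stood at 3.9 to 16.1 on the other hyperinsulinemic arrays, against 1.4 to 2.6 in the normal group. Cps1 encodes a mitochondrial enzyme of the urea cycle and no plasma protein. Its brighter probe set reached 192.5 on hyperinsulinemic replicate 6, against 56.6 to 72.6 on the other hyperinsulinemic arrays and 36.2 to 69 in the normal group. The other Cps1 probe set was flat, at 32 to 41.4 in hyperinsulinemic kidneys and 30.9 to 42.8 in normal kidneys.

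As a set, 27 of the 31 genes were higher and 4 lower in the hyperinsulinemic group by mean log2 signal, with a median log2 difference of 0.64, against 0.00147 over all 10411 genes. The filter asked for a signal at the array's 40th percentile or above on at least 5 of 10 arrays. It kept 14 of the 31 genes, and 8 of these passed it on more hyperinsulinemic than normal arrays, so a higher signal in that group is partly built into the 14. Of them, 12 were higher and 2 lower, with a median of 0.53; among all 7267 tested genes 51.5% were higher. The median was 0.28 without hyperinsulinemic replicate 6 and 0.74 without normal replicate 4. A log2 difference of 0.5 or more was found for 7 of the 14, against 0.151% of all tested genes, and one of -0.5 or less for 1, Spp2, against 0.11%.

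In limma's test over all 9601 tested probe sets, 0 of the 15 member probe sets passed (adjusted p between 0.676 and 0.973), where 0.0104% of all probe sets did. Without the filter 0 of the 41 member probe sets passed, where 0.0315% of all probe sets did. An unadjusted p under 0.05 was reached by 7 of the 15, against 5.36% of all tested probe sets. Since the members were chosen with this contrast known, nothing is read from that count. The groups did not overlap, with every hyperinsulinemic array higher, for 2 of the 31 genes, Orm1 and Vtn, against 0.498% of all probe sets. Both lay below the filter, and the normal signals of Vtn were 2.6 or less.

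**Figure D2:**
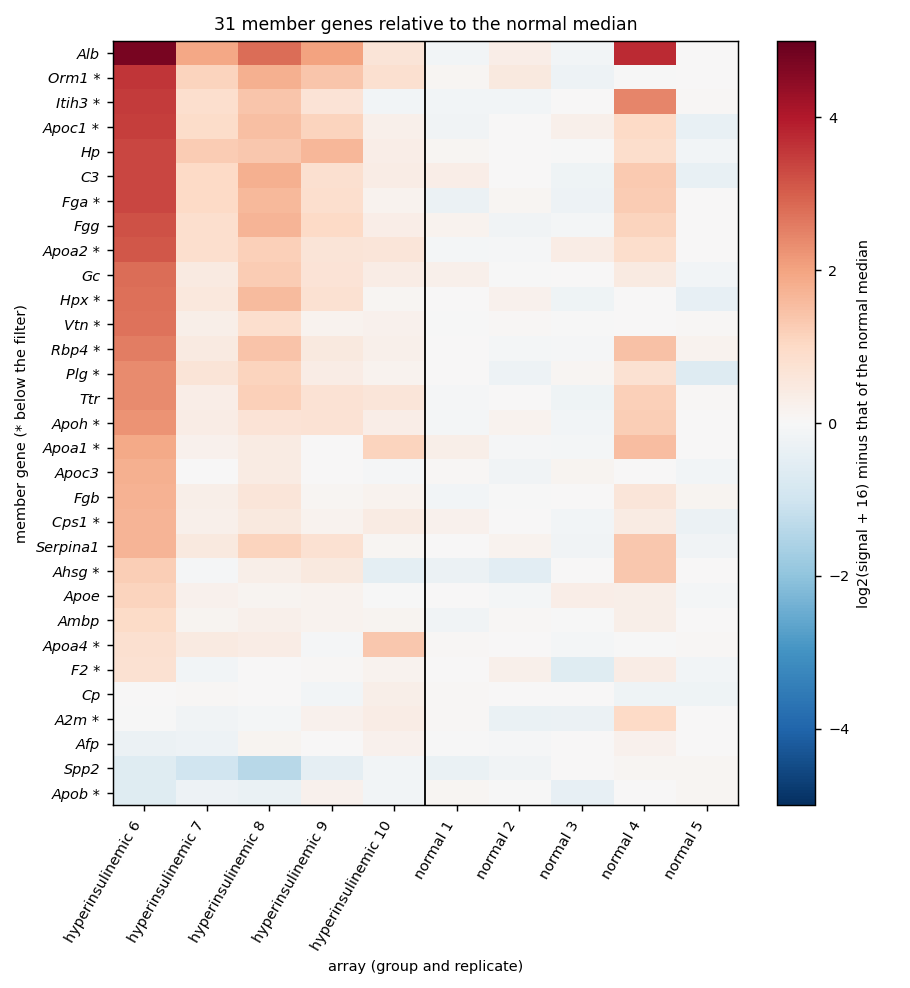
Difference of log2(signal + 16) from that of the normal group's median for the 31 member genes (rows, ordered by their level on hyperinsulinemic replicate 6 on that scale) on 10 arrays (columns); an asterisk marks genes below the filter. Hyperinsulinemic replicates 6 to 9 and normal replicate 4 stand out, and Afp and the brightest Cp probe set stay near 0.

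The signal was uneven from array to array. A signal of at least 2 times the normal median that was also at or above the array's 40th percentile was found for 23 of 31 genes on hyperinsulinemic replicate 6, where 0.528% of all genes met that mark. The counts were 5 on replicate 7, 9 on replicate 8, 4 on replicate 9 and 0 on replicate 10, against 0.0961%, 0.192%, 0.0768% and 0.0672% of all genes. On normal replicate 4 it was 9, against 0.106% of all genes, and on normal replicates 1, 2, 3 and 5 it was 0, against 0.0768%, 0.0288%, 0.0384% and 0.048%. Alb and Hp met the mark on hyperinsulinemic replicates 6 to 9, as did Fgg and Orm1. Hyperinsulinemic replicate 6 was also the array least like the rest, with a median correlation of 0.981 with the others, against 0.985 to 0.988. Its 3' to 5' ratio of Gapdh control signals, a sign of RNA integrity, was 1.13, within the range of 1.02 to 1.18 of the other arrays.

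Most members followed Alb from array to array. Over the 10 arrays, 17 of the other 30 genes had a Pearson r with Alb of at least 0.8 on the log2 scale, against 0.586% of all genes, and their median r was 0.84, against -0.02. Of the 13 other tested genes 8 followed it, against 0.427% of all tested genes: Serpina1 (0.99), Ttr (0.94), C3 (0.93), Fgg (0.92), Fgb (0.89), Ambp (0.88), Hp (0.88) and Gc (0.82). In rank order Ambp matched Alb on all 10 arrays apart from a tie in Alb, and Ttr had a Spearman rho of 0.96. Apoe (0.77) and Apoc3 (0.70) came lower, and Afp, Spp2 and the brightest Cp probe set were below 0. Among the genes below the filter 9 of 17 followed Alb, led by Itih3 (0.97), Rbp4 (0.95), Fga (0.95) and Apoh (0.95). This similarity had guided the choice of the members and is given without a test.

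The relation was also read within the groups and, separately, without the arrays with the most Alb. No reading removed both the group difference and those arrays. After each group's mean was subtracted, the median r over the 30 genes was 0.78, and 15 genes reached 0.8. Without hyperinsulinemic replicate 6 and normal replicate 4 the median r over 8 arrays was 0.87, and 18 genes reached 0.8. Some members changed place between these readings. Over those 8 arrays r was 0.96 for Orm1 and 0.93 for Hpx, against 0.73 and 0.79 over all 10, and it was 0.24 for F2 and 0.16 for Apoa1, against 0.71 and 0.76. For Spp2 it was -0.88, against -0.40. On those 8 arrays Alb ran from 84.9 to 436.4 in hyperinsulinemic kidneys and from 42.9 to 66.9 in normal kidneys. The r over them therefore also carries the group difference. With each group's mean subtracted over all 10 arrays, r was -0.08 for Spp2, 0.62 for Orm1 and 0.70 for Hpx. It was 0.68 for F2 and 0.74 for Apoa1.

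**Figure D3:**
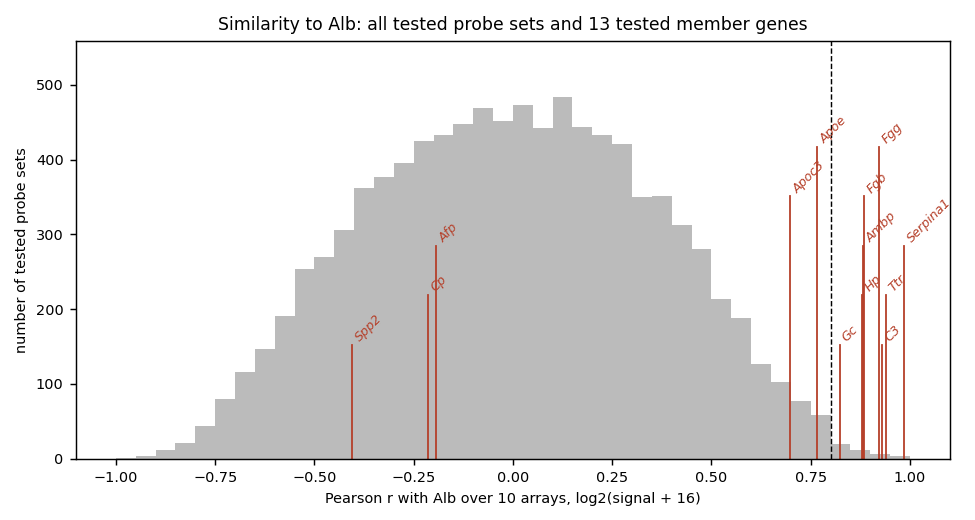
Pearson r with Alb over 10 arrays for all 9601 tested probe sets (grey histogram, number of probe sets) and for the 13 tested member genes besides Alb (red lines, whose height carries no value); the dashed line marks 0.8. To its right stand 8 members, while Afp, Spp2 and the brightest Cp probe set lie below 0.

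The 2 arrays with the most Alb differed in which members were high. Of the 23 genes that met the 2-fold mark on hyperinsulinemic replicate 6, 8 also met it on normal replicate 4: Alb, Ahsg, Apoh, C3, Fgg, Itih3, Serpina1 and Ttr. Of the other 15, Rbp4, Fga, Plg, Apoa2 and Apoc1 were also at least 2 times the normal median on normal replicate 4 and missed the mark there only because they lay below the 40th percentile. The remaining 10 were under 2 times the normal median on that array. A2m met the mark on normal replicate 4 alone of these arrays. For Orm1, Hpx and Apoc3, hyperinsulinemic replicate 6 stood at 11.96, 6.79 and 3.42 times the normal median (signal + 16), and normal replicate 4 at 0.993 to 1.03 times. Alb stood at 26.9 times on hyperinsulinemic replicate 6 and 13.1 times on normal replicate 4, and Serpina1 at 3.25 and 2.52 times on the same arrays. Hyperinsulinemic replicate 8 gives a further comparison, since its Alb, 436.4, was lower than the 842.2 of normal replicate 4. Orm1, Hpx, Gc, Hp, Fgg and C3 were nonetheless higher on hyperinsulinemic replicate 8, whereas Serpina1, Ahsg, Itih3, A2m and Apoh were lower; 16 of the 31 genes were higher there and 15 lower. These are single arrays, and no test was made of the difference between them.

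**Figure D4:**
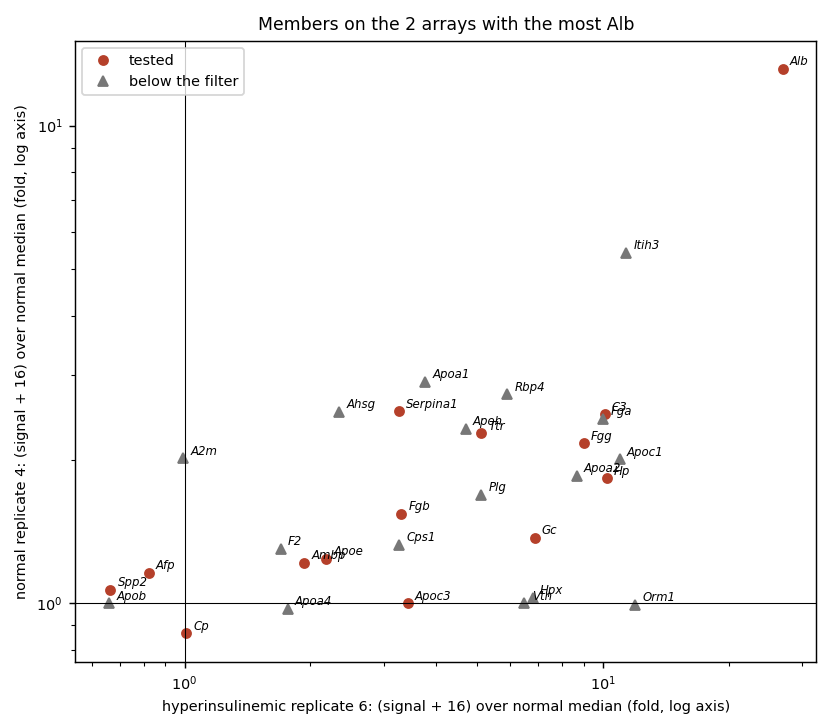
Level of each of 31 member genes on hyperinsulinemic replicate 6 (horizontal) and normal replicate 4 (vertical), each as (signal + 16) over that of the normal group's median, on log axes; circles passed the filter and triangles did not. Orm1, Hpx and Apoc3 lie near 1 on the vertical axis and between 3.42 and 11.96 on the horizontal one, whereas Alb is high on both. Vtn also lies near 1 on the vertical axis, where its signal of 1.8 equals the normal median. For dim genes such as Rbp4 the added 16 draws the level towards 1. On normal replicate 4 Rbp4 stands at 2.74 times with it and 10.1 times without it.

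Liver genes outside the set behaved less uniformly, but the members had been chosen for these patterns, so that contrast is partly built in. It was not tested. Of 33 other plasma protein genes on the array, 10 passed the filter: 3 were higher and 7 lower in the hyperinsulinemic group, with a median log2 difference of -0.04, and none of the 10 followed Alb. Without the filter 5 of the 33 followed it, Cfi, Fetub, Serpina3n, C8b and Itih4, against 0.586% of all genes. The 2-fold mark was met by 0 of the 33 on normal replicate 4, against 0.106% of all genes. It was met by 7 of the 33 on hyperinsulinemic replicate 6, against 0.528% of all genes. Itih4, for example, gave 340.9 on that array, 65.7 to 112.5 on the other hyperinsulinemic arrays and 46.8 to 63.1 on the normal ones. Genes without the filter were singled out after their values were seen. Among 41 genes of hepatocyte enzymes and transporters, 14 passed the filter, with 7 higher, a median of 0.00219 and 0 that followed Alb. Of the 14, Arg1 had the highest r with Alb, at 0.74, and a log2 difference of 0.16. Cyp2e1 had a log2 difference of 0.46 ± 0.12 (limma standard error, n = 5 each) and an r with Alb of 0.55. The 3 that followed Alb below the filter were Slco1b2, Otc and Fabp1. Without the filter 5 of the 41 met the 2-fold mark on hyperinsulinemic replicate 6, against 0.528% of all genes. On normal replicate 4 it was met by 0 of the 41, against 0.106% of all genes. Fabp1, the liver fatty acid binding protein gene, gave 288.9, 49.3, 86.8, 7.4 and 8.5 in the hyperinsulinemic group, against 3, 2.8, 2, 14.9 and 2.8 in the normal group, while the urea cycle gene Otc was between 1.9 and 3.9 throughout.

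The lists of liver regulators and of other cell types were read in the same way. Of 6 tested liver transcription factor genes, 2 were higher and 0 followed Alb; Cebpd had the highest r, at 0.40. The fetal liver also forms red cells, and all 4 tested erythroid genes were higher in the hyperinsulinemic group, with a median log2 difference of 0.14 and r with Alb between 0.05 and 0.36. The summed erythroid signal was 7106 to 9078 in hyperinsulinemic kidneys and 6054 to 7519 in normal kidneys. The 4 genes peaked on different arrays. Hbb, a beta globin gene, and Alas2 were highest on hyperinsulinemic replicate 10, at 7098.6 and 786.6, where no member met the 2-fold mark. Slc4a1 was highest on hyperinsulinemic replicate 8, at 156.6. Tfrc was highest on hyperinsulinemic replicate 6, the array with the most Alb, at 1334.4. In the list of acute-phase and interleukin 6 signalling genes 3 of 7 tested genes were higher. The highest r with Alb among them were 0.43 for Lcn2, 0.40 for Cebpd, 0.12 for Stat3 and 0.04 for Cebpb. Lcn2 stood at 156 ± 29.2 in hyperinsulinemic kidneys and 118 ± 28.1 in normal kidneys (SD, n = 5 each). Without the filter 1 gene of that list, Lbp, followed Alb (r = 0.90). The 2-fold mark was met by 0 genes of it on normal replicate 4 and by 1, Crp, on hyperinsulinemic replicate 6. Crp, an acute-phase gene, gave 202.7 on that array and 44.1 to 97.9 on the other hyperinsulinemic arrays, against 37.1 to 67.8 on the normal ones. Its r with Alb was 0.60. Of 11 tested leukocyte genes 6 were higher and 0 followed Alb. Adrenal and intestine lists had 2 tested genes each, exocrine pancreas had 0 of 12, and none of these followed Alb. In the 10 lists of other genes with a tested member, limma called 0 genes. The part of liver tissue, of blood or of any other cell type in the members' signals was not tested.

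The 10 tested genes outside the set with the highest r with Alb were Acly, Prmt6, Pigk, Resf1, Pmm1, Zmym2, Coro1b, Mrpl40, Cyp51 and Ptpa, with r between 0.86 and 0.91. Their range was narrower. The highest signal was 1.12 to 1.39 times the lowest in these genes, whereas it was 40.6 times in Alb. In the tested members that followed Alb it ran from 2.41 times in Ambp, 4.27 in Fgb and 4.46 in Serpina1 to 13.4 in Fgg and 18.9 in C3. A highest signal of at least 4 times the lowest was found for 9 of the 14 tested members, against 0.234% of all tested genes.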

How the data were processed

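The authors deposited a linear intensity for each probe set on each array, made with MAS5 per the submitters' processing notes; its version and settings are not given in the sources used here, and no detection calls were used. The 57 control probe sets were left out. Gene symbols came from GEO's platform annotation, and 312 probe sets with several symbols were named for no gene. Values were used as log2(signal + 16). The group difference was tested two-sided in R 4.3.3 by limma 3.58.1, using lmFit and then eBayes with an intensity trend, over the 9601 probe sets with a signal at the array's 40th percentile or above on at least 5 arrays, with Benjamini-Hochberg adjustment at 0.05. The fit was tested on simulated data. A gene was represented by its brightest tested probe set or, with none tested, its brightest one. Signals of every array are given for Alb, Afp and each tested member with a highest over lowest signal of 4 or more or a log2 difference of 0.5 or more, and for Orm1, added after its values were seen; of other lists up to 4 tested genes could be named. Similarity was measured as r with the brightest Alb probe set. The members and lists were chosen with earlier results of these data known. Alternatives were other pseudocounts, filters, normalizations, variance models and correlations, and leaving out arrays. The comparison of single arrays with the normal median was chosen after the data were seen. With arrays, their number limits the precision. Promoters and gene order came from RefSeq tables of the GRCr8 build; the array's own build is not given. Plots used matplotlib 3.10.9 under Python 3.11.15.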

Additional observations from a re-analysis of the deposited data

Results flagged for a closer look

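Within a group of 5 arrays, a signal was singled out when its gap to the nearest other array, on the log2(signal + 16) scale, exceeded 0.71 of the group's range. Chance singles out about 1 in 20 groups, and 5.94% of the groups of all tested probe sets met the rule. It was met by 8 of the 28 groups of tested members; since these genes were chosen by their likeness to Alb from array to array, the flags are not independent of that choice or of each other. In the normal group replicate 4 was far above the others for Alb (842.2), Ttr (180.7), Hp (198.1), Fgg (134.9) and Serpina1 (201.7). In the hyperinsulinemic group replicate 6 was far above the others for Ambp (191.2), Apoc3 (451.3) and Apoe (376.5).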

How the results depend on the processing

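The count of 0 members called held under each fit and with each array left out. Over all probe sets the count of 1 became 4 with array weights, 2 with arrays shifted to a common median, 5 without a filter, and 0 without the intensity trend or without the 2 arrays with the most Alb; it ran from 0 to 4 with 1 array left out. The filter set how many members were compared: 27 were higher without one and 4 with the filter required on all 10 arrays, against 12, and 17 and 1 followed Alb, against 8. With 1 array left out 12 members were higher each time, the median log2 difference ran from 0.28 to 0.74, and 6 to 10 members followed Alb. The sign of Afp turned, to 0.034, without the 2 arrays with the most Alb. Among the other lists, the median was 0.13 for other plasma proteins and -0.26 for adrenal genes without a filter, where more dim genes entered. For leukocyte genes it was 0.14 without the 2 arrays with the most Alb and ran from -0.044 to 0.093 with 1 array left out; the cause was not tested. Dim members near the floor carry little information on fold. No paired analysis was possible because the labels used here give no pairs across the groups.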

Other observations

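Genes of the adrenal cortex list stood out on 1 array, an observation made after the values were seen. On normal replicate 1, where Alb was 42.9, the steroid synthesis genes Hsd3b1, Cyp11a1 and Akr1b7 gave 218.4, 294.6 and 116.3. On the other 9 arrays they ran from 1.5 to 6.3, from 46.4 to 78.2 and from 3.2 to 14.9. All 3 genes lay below the filter. They enter the adrenal median of -0.26 given above without a filter, and Akr1b7 is the gene at that median.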
